A study of Homo sapiens with 6 samples.

Results

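The genes described here import, exchange and sense amino acids, or make serine, glycine, proline, asparagine and glutamine. They were named by symbol: 26 solute carriers of the SLC1, SLC3, SLC6, SLC7, SLC36, SLC38 and SLC43 families, and 21 enzymes and regulators that include ATF4 and genes it is known to control. All 47 were found among the 58884 gene identifiers of the count table. The groups were liver metastases of SW480 cells carrying a guide RNA against ITPR3 (sgITPR3, 3 libraries) and metastases of SW480 cells carrying a control guide RNA (sgCtrl, 3 libraries). SW480 is an established human colorectal cancer line. ITPR3 encodes the type 3 inositol trisphosphate receptor, a calcium release channel of the endoplasmic reticulum. Cells of both groups had entered the portal blood of NSG mice, which lack lymphocytes but keep their own liver and myeloid cells. In both groups red blood cells had been lysed and mouse cells depleted from the dissociated livers before RNA was extracted. The guide sequences, the number of clones behind each group and the pooling or age of animals are not stated in the labels, so p-values measure the spread between these libraries, which may be technical.

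Cells take up amino acids through carriers that differ in their substrates and coupling ions, and several SLC7 light chains reach the plasma membrane only when joined to the SLC3A2 heavy chain. Serine is made from a glycolytic intermediate by PHGDH, PSAT1 and PSPH in turn, and SHMT1 and SHMT2 pass its carbon to folate for nucleotide synthesis. When amino acids run short or the endoplasmic reticulum is stressed, translation of ATF4 increases, and this transcription factor raises transporters, tRNA synthetases and synthetic enzymes together. Colorectal tumours are known for high uptake of glutamine and use of serine.

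Polyadenylated RNA was counted from tags at transcript ends, and totals were 19140055 to 23943797 counts per library. Levels are given in CPM, that is counts scaled to a common library size, as mean ± SD (n = 3 in each group), and values of single libraries are in the order of replicates 1 to 3. ITPR3 was at 39.4, 41.03 and 46.2 CPM in the sgITPR3 libraries and at 108, 93.9 and 94.2 CPM in the sgCtrl libraries (log2 fold change -1.22 with SE 0.0816, adjusted p = 6.28e-10 in edgeR). A tag at the transcript end need not lie in the edited part, so this level does not give the amount of protein. Epithelial markers of colorectal carcinoma summed to 2026 to 2080 CPM in sgITPR3 and to 2410 to 2798 CPM in sgCtrl, while CDX1, KRT20 and LGALS4 were too low to be tested. Of the 7 tested, EPCAM, KRT8, KRT18 and KRT19, which carry most of the sum, were lower, CDX2 and VIL1 were higher and CDH1 did not pass. VIL1 averaged 36.8 ± 1.19 CPM in sgITPR3 and 3.18 ± 0.821 CPM in sgCtrl (log2 fold change 3.52 with SE 0.1395, adjusted p = 3.04e-13 in edgeR). Hepatocyte markers, 18 genes of which none was at 0 in all libraries, summed to 221 to 402 CPM in sgITPR3 and to 79.3 to 353 CPM in sgCtrl. Within them ALB was at 232, 153 and 112 CPM in the sgITPR3 libraries and at 33.8, 169.7 and 21.6 CPM in the sgCtrl libraries, so sgCtrl replicate 2 stood with the sgITPR3 libraries. ALB as a covariate, used below, thus overlaps in part with the group. A call that ends in that fit cannot be ascribed to ALB. Of 13 hepatocyte markers tested, CYP2E1 was higher, SERPINA1 was lower and 11 did not pass, among them ALB, the largest part of the sum. The log2 fold change was above 0 for 12 of the 13 and below 0 for SERPINA1 alone, with a median of 1.08. SERPINA1 averaged 13.9 ± 2.17 CPM in sgITPR3 and 43.3 ± 3.86 CPM in sgCtrl (log2 fold change -1.64 with SE 0.111, adjusted p = 8.09e-10 in edgeR). Erythroid markers, nearly all of them HBA1 and HBA2, were at 4.84 to 6.39 CPM in sgITPR3 and 0.587 to 1.34 CPM in sgCtrl. Both genes were higher (log2 fold changes 2.78 and 2.51, adjusted p = 0.00114 and 1.79e-06 in edgeR). Neutrophil markers were at 3.804 to 7.51 CPM in sgITPR3 and 9.88 to 15.7 CPM in sgCtrl, a sum that is nearly all S100A9, the 1 gene of 5 tested, with S100A8, CSF3R and MPO near 0 and FCGR3B at 0. S100A9 was lower (log2 fold change -1.20, adjusted p = 0.0109 in edgeR). Markers of stellate cells and fibroblasts were at 21.3 to 24.1 CPM in sgITPR3 and 19.2 to 20.4 CPM in sgCtrl, with LUM at 0. Of the 3 tested, COL1A1 was higher (log2 fold change 0.48, adjusted p = 0.0306 in edgeR), while ACTA2 and RGS5 did not pass. Endothelial markers, with CLEC4G at 0, did not exceed 0.722 CPM and macrophage markers 2.59 CPM in any library. All these counts are of human genes, while the host cells were of the mouse. The sums therefore do not measure how many host cells of a type were present. The part of these cells in the changes below was not tested except where a value is given, and in such bulk samples fewer cells of a type and less RNA per cell cannot be told apart.

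Of the 47 genes, 45 had enough counts to be tested. The glutamine and histidine carrier SLC38A5, the taurine importer SLC6A6 and the formate enzyme MTHFD1L fell in sgITPR3, and the exchanger SLC7A7 and the neutral carrier SLC43A2 rose. In all, 9 genes rose and 8 fell at an adjusted p under 0.05 (edgeR quasi-likelihood test, adjusted over all 15804 genes tested), which is 37.8% of those tested. Over all genes the share was 24.5%, with 12% higher and 12.5% lower. The genes were chosen with earlier results of these data known, so these shares are a description and not a test of the set. The median log2 fold change of the 45 genes was 0.01, against 0.0009 for all genes, with 25 genes above 0 and 20 below. Among the 25 tested transporters 5 rose and 4 fell, and among the 20 tested enzymes and regulators 4 rose and 4 fell. Of the 17 changes, 5 exceeded 1.5-fold and 2 exceeded 2-fold. Over all 3866 genes that passed, 42.7% exceeded 1.5-fold. The median log2 fold change without its sign was 0.39 for the 17 genes and 0.50 for all genes that passed. Libraries of the groups did not overlap for 21 of the 45 tested genes, against 39.3% of all genes. Among the 17 that passed this held for 16, which the test itself favours. Without sgITPR3 replicate 1 or without sgITPR3 replicate 2, 5 genes fell instead of 8.

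**Figure D1:**
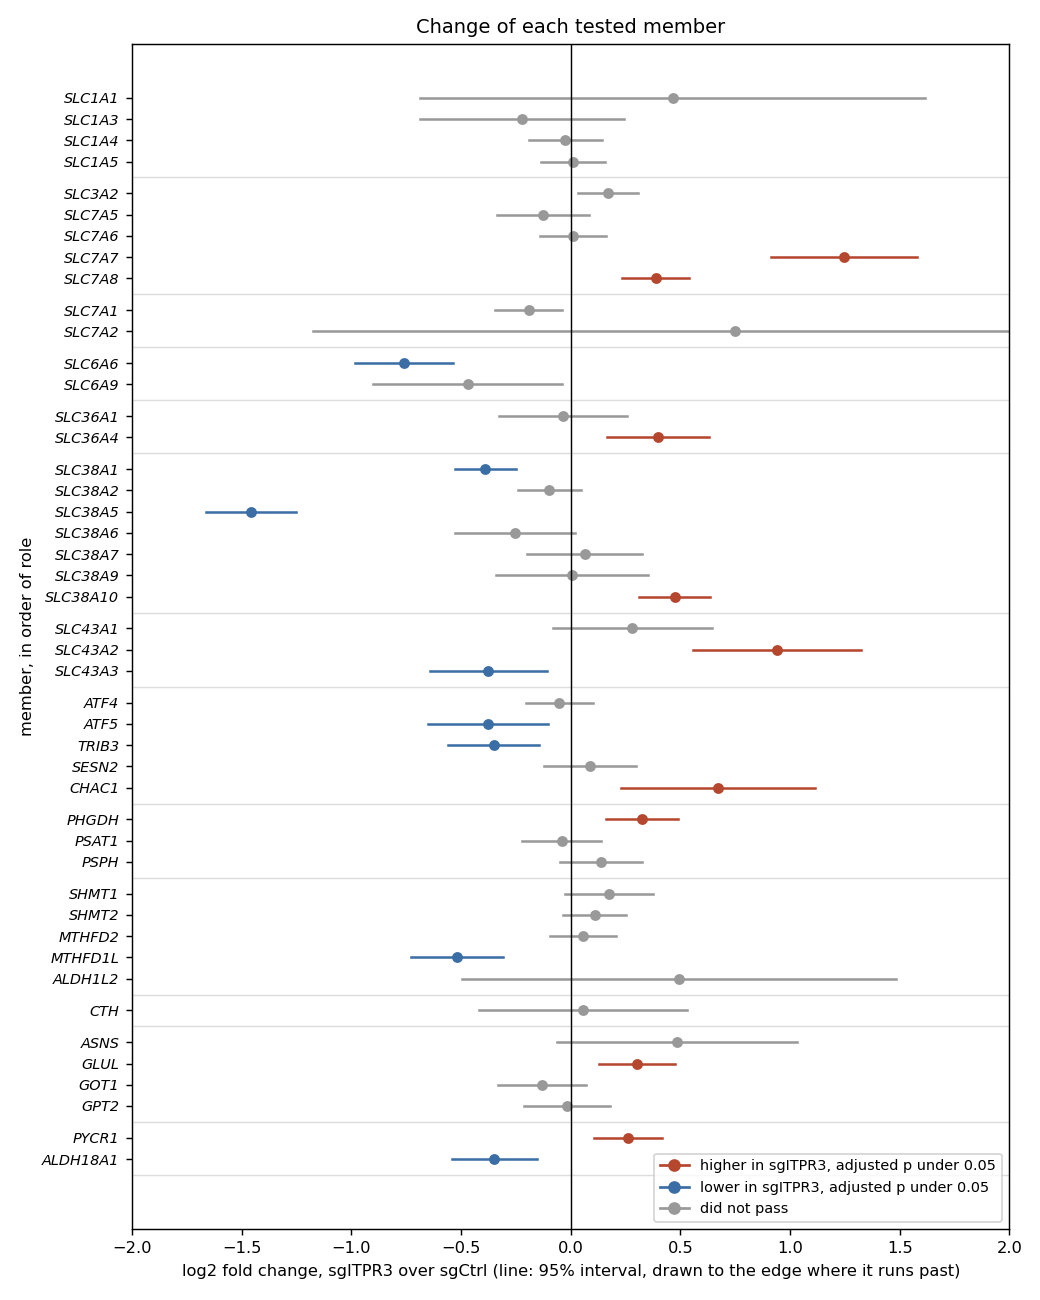
Log2 fold change of sgITPR3 over sgCtrl for the 45 tested genes in order of role, each with its 95% interval as a line (x axis), with genes that passed in red where higher and blue where lower. SLC38A5 at -1.46 and SLC7A7 at 1.25 lie farthest from 0 among those that passed, and the interval of SLC7A2 runs past the right edge.

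The heavy chain and its light chains form exchangers at the plasma membrane, and here 2 of 4 light chains rose. SLC7A7, whose protein y+LAT1 exports cationic amino acids in exchange for neutral ones, was at 12.1, 16.96 and 12.8 CPM in the sgITPR3 libraries and at 6.94, 5.62 and 5.12 CPM in the sgCtrl libraries. Every sgITPR3 library lay above every sgCtrl library, a rise of 2.37-fold (log2 fold change 1.25 with SE 0.159, adjusted p = 6.26e-06 in edgeR). SLC7A8, the neutral exchanger LAT2, was at 228, 235 and 217 CPM in sgITPR3 and 189.7, 158 and 172 CPM in sgCtrl (log2 fold change 0.39 with SE 0.0733, adjusted p = 5.46e-04 in edgeR). It too was higher in each sgITPR3 library than in any sgCtrl library. SLC7A5, the LAT1 chain that carries large neutral amino acids such as leucine, was at 219.9, 193 and 216 CPM in sgITPR3 and 251, 189 and 248 CPM in sgCtrl, and the groups overlapped (log2 fold change -0.13 with SE 0.0978, adjusted p = 0.387 in edgeR). The sgCtrl library nearest the sgITPR3 values was replicate 2, the one with high ALB, and without it SLC7A5 passed at a log2 fold change of -0.25 (edgeR adjusted p = 0.0131). A fit with ALB as a covariate put it at 0.09 (adjusted p = 0.599 in edgeR). SLC7A6, the related y+LAT2 chain, averaged 67.2 ± 0.637 CPM in sgITPR3 and 66.7 ± 4.25 CPM in sgCtrl (log2 fold change 0.01, 95% interval -0.14 to 0.16, adjusted p = 0.934 in edgeR). The heavy chain SLC3A2 was at 373, 384 and 358 CPM in sgITPR3 and 328, 346 and 317 CPM in sgCtrl. Its libraries did not overlap, yet the change missed the threshold (log2 fold change 0.17 with SE 0.0663, adjusted p = 0.0684 in edgeR). It passed in DESeq2 (adjusted p = 0.0417), with the replicate number as a block (0.0422) and without sgCtrl replicate 2 (0.0380).

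In the SLC38 family of sodium-coupled neutral carriers, 2 of 7 genes fell and 1 rose. SLC38A5 encodes a carrier that exchanges glutamine, histidine, serine and asparagine with sodium against protons. Its level was 19.7, 19.8 and 19.2 CPM in the sgITPR3 libraries and 47.3, 52.1 and 61.9 CPM in the sgCtrl libraries. The sgITPR3 libraries differed little from each other and all lay far below the sgCtrl libraries, a fall of 2.75-fold (log2 fold change -1.46 with SE 0.09899, adjusted p = 8.09e-10 in edgeR). This was the largest change among the 17 genes that passed, and its log2 fold change stayed between -1.55 and -1.35 in all 15 other settings. SLC38A1, an importer of glutamine and alanine, was at 171, 171 and 169 CPM in sgITPR3 and 236, 209 and 224 CPM in sgCtrl. The groups did not overlap and the fall was 1.31-fold (log2 fold change -0.39 with SE 0.0673, adjusted p = 2.17e-04 in edgeR). SLC38A2, the close relative of SLC38A1 that is known to be induced when amino acids are scarce, averaged 275 ± 9.03 CPM in sgITPR3 and 295 ± 18.8 CPM in sgCtrl and overlapped between groups (log2 fold change -0.10, 95% interval -0.24 to 0.04, adjusted p = 0.327 in edgeR). SLC38A10 was at 56.05, 59.4 and 53.7 CPM in sgITPR3 and 40.7, 40.9 and 40.3 CPM in sgCtrl, and rose 1.39-fold without overlap (log2 fold change 0.47 with SE 0.0775, adjusted p = 1.20e-04 in edgeR). SLC38A7, a lysosomal carrier of glutamine and asparagine, averaged 11.9 ± 0.484 CPM in sgITPR3 and 11.3 ± 1.06 CPM in sgCtrl and did not pass (log2 fold change 0.06, 95% interval -0.20 to 0.32, adjusted p = 0.762 in edgeR). SLC38A9, the lysosomal arginine sensor of mTORC1, averaged 6.101 ± 0.654 CPM in sgITPR3 and 6.07 ± 0.422 CPM in sgCtrl and did not pass (log2 fold change 0.0046, 95% interval -0.34 to 0.35, adjusted p = 0.989 in edgeR). SLC38A6 averaged 8.87 ± 0.356 CPM in sgITPR3 and 10.6 ± 0.713 CPM in sgCtrl; its libraries did not overlap but the change missed the threshold (log2 fold change -0.25 with SE 0.132, adjusted p = 0.173 in edgeR).

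**Figure D2:**
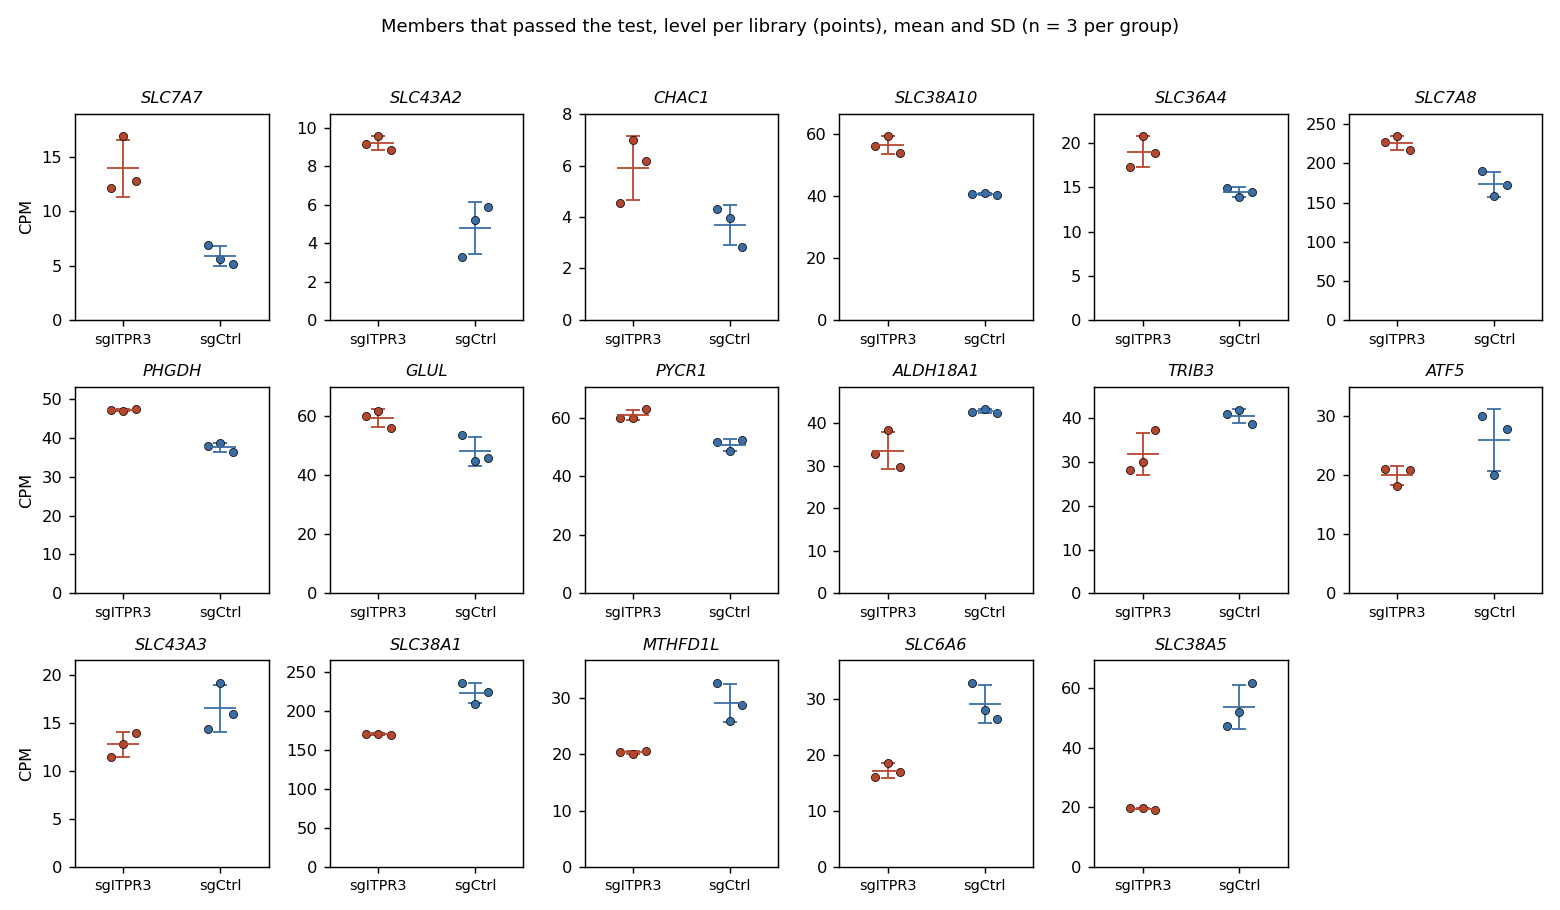
Level in CPM (y axis, from 0) of the 17 genes that passed the test, with 1 point per library and a bar for mean and SD over n = 3, sgITPR3 left and sgCtrl right in each panel. SLC38A5 lay at 19.2 to 19.8 CPM in sgITPR3 and 47.3 to 61.9 CPM in sgCtrl, and ATF5 is the gene whose groups overlapped.

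Of the SLC6 importers, which use sodium and chloride, SLC6A6 fell. It encodes the taurine transporter and was at 16.02, 18.6 and 16.9 CPM in the sgITPR3 libraries and 32.9, 27.9 and 26.4 CPM in the sgCtrl libraries. All sgITPR3 values were below all sgCtrl values, 1.69-fold lower on average (log2 fold change -0.76 with SE 0.106, adjusted p = 1.99e-05 in edgeR). GRIP2 overlaps SLC6A6 on the other strand and had 136, 204 and 150 counts in sgITPR3 and 54, 62 and 65 counts in sgCtrl. As no label states whether counting used strand, reads of such partners cannot be told apart. SLC6A9, the glycine transporter GlyT1, was at 4.15, 4.21 and 3.45 CPM in sgITPR3 and 4.46, 7.11 and 4.805 CPM in sgCtrl, with no overlap but no call (log2 fold change -0.47 with SE 0.207, adjusted p = 0.105 in edgeR). With ALB as a covariate it passed (log2 fold change -0.81, edgeR adjusted p = 0.0234). SLC6A14, a broad importer of neutral and cationic amino acids, had 0 counts in all 6 libraries, which allows up to 0.121 to 0.161 CPM per library at a floor of 3 counts, for counting error alone.

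Of 2 SLC36 carriers 1 rose, and of 3 SLC43 carriers 1 rose and 1 fell. SLC36A4, a carrier of proline and tryptophan, was at 17.3, 20.8 and 18.9 CPM in sgITPR3 and 14.9, 13.9 and 14.5 CPM in sgCtrl, without overlap (log2 fold change 0.40 with SE 0.111, adjusted p = 0.0117 in edgeR). Its call ended without sgITPR3 replicate 2, the highest library (log2 fold change 0.32, edgeR adjusted p = 0.0952). SLC36A1, the proton-coupled carrier of the lysosome, averaged 16.8 ± 3.07 CPM in sgITPR3 and 17.3 ± 2.74 CPM in sgCtrl and overlapped between groups (log2 fold change -0.04, 95% interval -0.33 to 0.26, adjusted p = 0.885 in edgeR). SLC43A2, the facilitative carrier LAT4 of large neutral amino acids, was at 9.15, 9.59 and 8.87 CPM in the sgITPR3 libraries and 3.28, 5.22 and 5.87 CPM in the sgCtrl libraries. It rose 1.92-fold and the groups lay apart (log2 fold change 0.94 with SE 0.183, adjusted p = 6.93e-04 in edgeR). SLC43A1, the related LAT3, averaged 8.06 ± 1.24 CPM in sgITPR3 and 6.62 ± 1.44 CPM in sgCtrl and did not pass (log2 fold change 0.28, 95% interval -0.08 to 0.65, adjusted p = 0.263 in edgeR). SLC43A3, which carries purine nucleobases rather than amino acids, was at 11.4, 12.8 and 13.97 CPM in sgITPR3 and 14.4, 19.2 and 15.96 CPM in sgCtrl. It fell 1.30-fold (log2 fold change -0.38 with SE 0.128, adjusted p = 0.0361 in edgeR), and the call was lost in DESeq2 (adjusted p = 0.0504) and without sgITPR3 replicate 1, sgITPR3 replicate 2, sgCtrl replicate 2 or sgCtrl replicate 3 (edgeR adjusted p 0.0616 to 0.167), at log2 fold changes of -0.40 to -0.26.

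Neither of the 2 cationic carriers passed in edgeR, DESeq2 or limma-voom (1 had an unadjusted edgeR p under 0.05), and sgCtrl replicate 2 decided the value of SLC7A2. SLC7A2 encodes the arginine and lysine carrier CAT-2, which liver cells are known to express, and was at 9.5, 9.63 and 7.22 CPM in the sgITPR3 libraries and 2.53, 10.8 and 2.19 CPM in the sgCtrl libraries. Its high sgCtrl library was replicate 2, at 4.6 times the mean of the other sgCtrl libraries, the one in which ALB was also high. The test gave log2 fold change 0.75 with SE 0.7095, adjusted p = 0.5305 in edgeR. Leaving out sgCtrl replicate 2 moved the log2 value to 1.90 (adjusted p = 4.09e-07 in edgeR), and a fit with ALB as a covariate moved it to -0.14 (adjusted p = 0.750 in edgeR). SLC7A1, the main arginine importer CAT-1, was at 105, 117 and 106 CPM in sgITPR3 and 133, 116 and 126 CPM in sgCtrl (log2 fold change -0.19 with SE 0.0733, adjusted p = 0.0617 in edgeR), and passed as lower without sgCtrl replicate 2 (log2 fold change -0.25, edgeR adjusted p = 0.0177). No other tested gene of the set with a sgCtrl mean over 1 CPM had a ratio above 1.53 for that library, the ratio of SLC6A9, or below 0.615, that of SLC1A3.

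**Figure D3:**
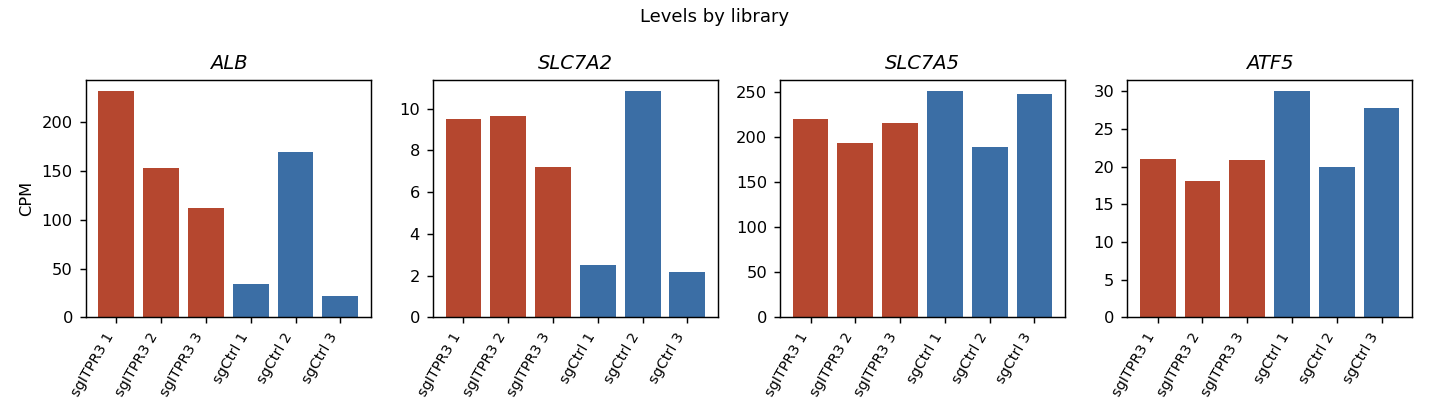
Level in CPM (y axis, from 0) by library of ALB, SLC7A2, SLC7A5 and ATF5, with sgITPR3 libraries in red and sgCtrl libraries in blue. In sgCtrl replicate 2 ALB was at 169.7 and SLC7A2 at 10.8 CPM, near or above the sgITPR3 libraries, while SLC7A5 and ATF5 were below the other sgCtrl libraries.

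None of the 4 SLC1 genes passed in edgeR, DESeq2 or limma-voom, and 0 had an unadjusted p under 0.05 in edgeR. SLC1A5, the glutamine exchanger ASCT2, was at 1064, 1024 and 1018 CPM in the sgITPR3 libraries and 1105, 942 and 1036 CPM in the sgCtrl libraries, and the groups overlapped. The 95% interval of its log2 fold change ran from -0.14 to 0.16 (edgeR adjusted p = 0.931). SLC1A4, the serine and alanine exchanger ASCT1, averaged 46.2 ± 2.42 CPM in sgITPR3 and 47.04 ± 1.89 CPM in sgCtrl (log2 fold change -0.03, 95% interval -0.19 to 0.14, adjusted p = 0.856 in edgeR). The glutamate importers SLC1A3 and SLC1A1 were low. SLC1A3 averaged 3.68 ± 0.306 CPM in sgITPR3 and 4.299 ± 1.23 CPM in sgCtrl (log2 fold change -0.22, 95% interval -0.69 to 0.24, adjusted p = 0.517 in edgeR). SLC1A1 had 23, 6 and 20 counts in sgITPR3 and 10, 16 and 5 counts in sgCtrl, and the 95% interval of its log2 fold change ran from -0.69 to 1.62 (edgeR adjusted p = 0.588).

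Among the regulators, ATF4 itself did not pass while 3 of the other 4 did, in both directions. ATF4 was at 237, 231 and 277 CPM in the sgITPR3 libraries and 264, 249.9 and 258 CPM in the sgCtrl libraries (log2 fold change -0.05, 95% interval -0.21 to 0.10, adjusted p = 0.661 in edgeR). Its activity is known to be set mostly by translation, which these counts do not measure. The processed pseudogene ATF4P3 had 76, 74 and 35 counts in sgITPR3 and 9, 68 and 3 counts in sgCtrl, high in the same libraries as ALB. TRIB3, a pseudokinase that is induced by ATF4 and restrains it, was at 28.1, 30.03 and 37.2 CPM in sgITPR3 and 40.9, 41.8 and 38.6 CPM in sgCtrl, without overlap (log2 fold change -0.35 with SE 0.0992, adjusted p = 0.0127 in edgeR). Its call ended without sgITPR3 replicate 1 (edgeR adjusted p = 0.0915), without sgITPR3 replicate 2 (0.0728) and with ALB as a covariate (0.0830), while the log2 fold change stayed between -0.48 and -0.27 in all 15 other settings. ATF5, a related stress factor, was at 20.99, 18.1 and 20.8 CPM in sgITPR3 and 30.01, 19.99 and 27.8 CPM in sgCtrl. The sgCtrl library with high ALB fell within the sgITPR3 range, and the call (log2 fold change -0.38 with SE 0.1295, adjusted p = 0.0433 in edgeR) was lost in 8 of 15 other settings, with a log2 fold change of -0.09 when ALB was a covariate (edgeR adjusted p = 0.762). ATF5 also overlaps NUP62 on the other strand, which had 1544 to 2087 counts per library.

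CHAC1 and SESN2 are further ATF4 targets. CHAC1, which encodes an enzyme that breaks down glutathione, was at 4.53, 7.001 and 6.19 CPM in sgITPR3 and 4.303, 3.98 and 2.83 CPM in sgCtrl. The groups lay close but apart, and the rise was 1.59-fold (log2 fold change 0.67 with SE 0.212, adjusted p = 0.0243 in edgeR). It was lost without sgITPR3 replicate 2 (edgeR adjusted p = 0.155), sgITPR3 replicate 3 (0.0726) or sgCtrl replicate 3 (0.123), and with ALB as a covariate (0.150), while the log2 fold change stayed between 0.51 and 0.83 in all 15 other settings. SESN2, a leucine sensor that restrains mTORC1, averaged 20.9 ± 1.55 CPM in sgITPR3 and 19.7 ± 0.492 CPM in sgCtrl and did not pass (log2 fold change 0.09, 95% interval -0.12 to 0.30, adjusted p = 0.575 in edgeR).

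The promoters of these genes were read for TGATGNAA, the core of the composite element that ATF4 binds with C/EBP factors, on both strands of the 250 bases before each start (RefSeq sequences, GRCh38.p14). Promoters of 39 of the 47 genes were matched. The core stood in 5 of the 39 (12.8%), against 3.19% of 27305 promoters of the same length. Some of the 47 genes were listed because ATF4 is known to control them, so this difference is not a result of these data. Of 14 genes that passed and had a promoter, 2 held the core (14.3%). The 5 promoters with the core are shown because they carry the letters by which ATF4 is known to act. Each has 30 bases on either side and the core in capitals, read along the gene's strand.
CHAC1: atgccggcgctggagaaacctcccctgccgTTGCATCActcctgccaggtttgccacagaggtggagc
MTHFD1L: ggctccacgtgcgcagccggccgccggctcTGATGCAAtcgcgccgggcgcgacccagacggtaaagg
ASNS: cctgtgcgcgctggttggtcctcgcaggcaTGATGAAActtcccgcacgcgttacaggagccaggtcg
GOT1: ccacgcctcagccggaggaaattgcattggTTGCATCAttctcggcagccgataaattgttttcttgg
SLC1A3: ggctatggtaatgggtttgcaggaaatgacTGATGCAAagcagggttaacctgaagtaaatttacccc
The core began 209 bases before the start in CHAC1 (chr15:40953232-40953299, plus strand), which rose, and 129 bases before it in MTHFD1L (chr6:150866327-150866394, plus strand), which fell. In ASNS (chr7:97872439-97872506, minus strand) it began 68 bases before the start, in GOT1 (chr10:99430785-99430852, minus strand) 198 bases and in SLC1A3 (chr5:36596338-36596405, plus strand) 220 bases, and these 3 genes did not pass. The RefSeq start used for SLC1A3 lies upstream of chr5:36606355, where GENCODE release 29 begins the gene. CHAC1 and GOT1 hold the core on the opposite strand, as TTGCATCA. A match describes letters, not binding.

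Of the 3 serine synthesis enzymes, the first passed the test as higher. PHGDH was at 47.03, 46.9 and 47.4 CPM in the sgITPR3 libraries and 37.97, 38.5 and 36.3 CPM in the sgCtrl libraries. The libraries of each group were close together and the groups did not overlap, a rise of 1.25-fold (log2 fold change 0.32 with SE 0.0789, adjusted p = 0.00469 in edgeR). A fit with ALB as a covariate ended the call at a log2 fold change of 0.29 (edgeR adjusted p = 0.0716). PSAT1, the transaminase of the next step, was at 74.2, 84.2 and 79.7 CPM in sgITPR3 and 93.4, 72.8 and 78.8 CPM in sgCtrl (log2 fold change -0.04, 95% interval -0.22 to 0.14, adjusted p = 0.781 in edgeR). PSPH, the phosphatase that releases serine, was at 28.7, 28.5 and 27.4 CPM in sgITPR3 and 26.7, 24.4 and 25.8 CPM in sgCtrl, apart but not past the threshold (log2 fold change 0.14 with SE 0.0901, adjusted p = 0.285 in edgeR). Whether PHGDH differed in its change from PSAT1 or PSPH was not tested.

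Of the enzymes that move serine carbon into folate, MTHFD1L fell. It releases formate from mitochondria and was at 20.4, 20.03 and 20.6 CPM in the sgITPR3 libraries and 32.8, 26 and 28.8 CPM in the sgCtrl libraries. Each sgITPR3 library lay below each sgCtrl library (log2 fold change -0.52 with SE 0.101, adjusted p = 6.87e-04 in edgeR), and the gene passed in all 15 other settings. SHMT2, which splits serine in mitochondria, was at 141, 129 and 145 CPM in sgITPR3 and 127, 131 and 127 CPM in sgCtrl (log2 fold change 0.11, 95% interval -0.03 to 0.25, adjusted p = 0.266 in edgeR). Its cytosolic counterpart SHMT1 averaged 31.9 ± 2.99 CPM in sgITPR3 and 28.3 ± 2.08 CPM in sgCtrl (log2 fold change 0.17, 95% interval -0.03 to 0.37, adjusted p = 0.209 in edgeR). MTHFD2, the mitochondrial dehydrogenase of the next step, was at 107, 103 and 101 CPM in sgITPR3 and 108, 92.6 and 99.2 CPM in sgCtrl (log2 fold change 0.06, 95% interval -0.10 to 0.21, adjusted p = 0.629 in edgeR). ALDH1L2, which oxidises formyl folate in mitochondria, had 22, 20 and 10 counts in sgITPR3 and 15, 8 and 8 counts in sgCtrl, too few to bound its change (log2 fold change 0.49, 95% interval -0.50 to 1.48, adjusted p = 0.494 in edgeR).

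The 2 proline synthesis genes changed in opposite directions. PYCR1, which completes proline in mitochondria, was at 59.9, 59.9 and 62.99 CPM in the sgITPR3 libraries and 51.6, 48.5 and 52.4 CPM in the sgCtrl libraries (log2 fold change 0.26 with SE 0.0741, adjusted p = 0.0131 in edgeR). ALDH18A1, which makes the precursor from glutamate, was at 32.6, 38.3 and 29.6 CPM in sgITPR3 and 42.6, 43.2 and 42.3 CPM in sgCtrl (log2 fold change -0.35 with SE 0.0935, adjusted p = 0.00922 in edgeR). Neither pair of groups overlapped. Without sgITPR3 replicate 3 both calls ended, at a log2 fold change of 0.24 for PYCR1 (edgeR adjusted p = 0.0504) and -0.27 for ALDH18A1 (0.0577).

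Among the other amino acid enzymes GLUL rose. It encodes glutamine synthetase and was at 60.1, 61.9 and 55.8 CPM in the sgITPR3 libraries and 53.7, 44.8 and 45.8 CPM in the sgCtrl libraries, without overlap (log2 fold change 0.30 with SE 0.0836, adjusted p = 0.01103 in edgeR). The call ended without sgITPR3 replicate 2 (edgeR adjusted p = 0.0686) and without sgCtrl replicate 3 (0.0547), at a log2 fold change of 0.27 in both. ASNS, the asparagine synthetase and a classical ATF4 target, had 50, 76 and 53 counts in sgITPR3 and 40, 40 and 29 counts in sgCtrl. Its lowest sgITPR3 library (2.159 CPM) and highest sgCtrl library (2.151 CPM) differed by less than 1 count is worth. The change missed the threshold (log2 fold change 0.48 with SE 0.263, adjusted p = 0.196 in edgeR). The transaminases GOT1 and GPT2 overlapped between groups. GOT1 averaged 36.5 ± 3.42 CPM in sgITPR3 and 39.97 ± 4.22 CPM in sgCtrl (log2 fold change -0.13, 95% interval -0.33 to 0.07, adjusted p = 0.349 in edgeR), and GPT2 averaged 28.6 ± 1.05 CPM in sgITPR3 and 28.99 ± 2.91 CPM in sgCtrl (log2 fold change -0.02, 95% interval -0.21 to 0.18, adjusted p = 0.921 in edgeR). In transsulfuration, the route to cysteine, CTH averaged 3.01 ± 0.359 CPM in sgITPR3 and 2.897 ± 0.411 CPM in sgCtrl (log2 fold change 0.06, 95% interval -0.42 to 0.53, adjusted p = 0.891 in edgeR). CBS had 0 counts in every library, as did its annotated near-identical copy CBSL on the same chromosome, so reads shared by both may have been left uncounted and the level of CBS is uncertain.

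Of the 28 tested genes that did not pass, 21 had a 95% interval within 1.5-fold in either direction, with log2 fold changes from -0.25 to 0.17. Those with wider intervals were SLC1A1, SLC1A3, SLC7A2, SLC6A9, SLC43A1, ALDH1L2 and ASNS, all with a mean under 10 CPM in each group. For these 7 genes the depth and spread did not bound the change within 1.5-fold.

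**Figure D4:**
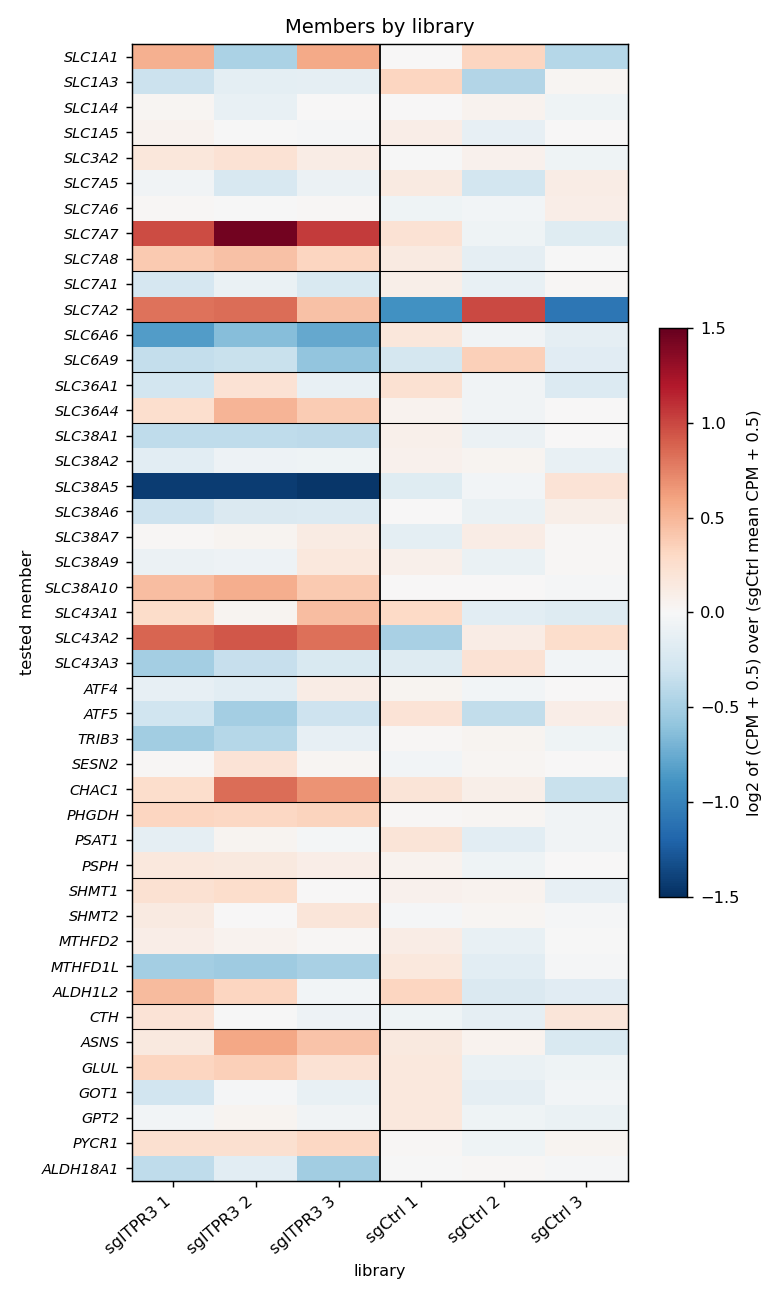
Log2 ratio of each library's level to the sgCtrl mean, both with 0.5 CPM added (colour), for the 45 tested genes (rows, in order of role) and 6 libraries (columns, sgITPR3 left of the line). SLC38A5 and SLC6A6 are blue and SLC7A7 and SLC43A2 red in all 3 sgITPR3 libraries, while SLC7A2 is red in sgCtrl replicate 2 as well.

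Genes of the same pathways outside the 47 were counted from lists. The lists too were chosen with earlier results known, so their shares are a description. Of 20 cytosolic aminoacyl-tRNA synthetases, several of which ATF4 is known to raise, 6 fell, 0 rose and 14 did not pass. The share past the threshold was 30%, against 24.5% of all genes (12% higher and 12.5% lower). Their median log2 fold change was -0.12 against 0.0009 over all genes. At an unadjusted edgeR p under 0.05 the counts were 0 higher and 9 lower, and 0 rose in DESeq2 or limma-voom. WARS1, the tryptophan enzyme, averaged 42.6 ± 2.29 CPM in sgITPR3 and 61.7 ± 2.504 CPM in sgCtrl (log2 fold change -0.54 with SE 0.0776, adjusted p = 2.94e-05 in edgeR), and VARS1, the valine enzyme, averaged 28.8 ± 1.64 CPM in sgITPR3 and 40.7 ± 3.405 CPM in sgCtrl (log2 fold change -0.50 with SE 0.0909, adjusted p = 3.77e-04 in edgeR). IARS1 averaged 52.8 ± 1.78 CPM in sgITPR3 and 63.3 ± 5.81 CPM in sgCtrl and GARS1 averaged 114 ± 8.62 CPM in sgITPR3 and 132 ± 7.69 CPM in sgCtrl, with log2 fold changes of -0.26 and -0.22. Without sgITPR3 replicate 2, without sgCtrl replicate 1 or with ALB as a covariate 2 of the 20 fell, and without sgITPR3 replicate 1 or sgCtrl replicate 3 it was 3. With ALB as a covariate fewer of all genes fell as well, as counted in the last section.

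The list of the integrated stress response holds kinases that switch ATF4 translation on and PPP1R15 genes that oppose it. It also holds subunits of the translation factors eIF2 and eIF2B, genes downstream of ATF4 and other stress factors. Of its 24 tested genes 8 fell, 2 rose and 14 did not pass (median log2 fold change -0.12). Those that fell include subunits of eIF2 and eIF2B, so not all of them are activators or targets of ATF4. The share past the threshold was 41.7%, against 24.5% of all genes. DDIT3, the stress factor CHOP, averaged 61.9 ± 2.14 CPM in sgITPR3 and 46.7 ± 5.196 CPM in sgCtrl (log2 fold change 0.41 with SE 0.0845, adjusted p = 0.00127 in edgeR), and the stress cytokine GDF15 averaged 43.1 ± 7.08 CPM in sgITPR3 and 27.8 ± 4.78 CPM in sgCtrl (log2 fold change 0.63 with SE 0.141, adjusted p = 0.006901 in edgeR), so these 2 rose. EIF4EBP1, a brake on cap-dependent translation that ATF4 induces, averaged 16.04 ± 0.639 CPM in sgITPR3 and 27.1 ± 2.98 CPM in sgCtrl (log2 fold change -0.76 with SE 0.105, adjusted p = 1.82e-05 in edgeR), and ATF3 averaged 76.9 ± 9.32 CPM in sgITPR3 and 99.5 ± 9.13 CPM in sgCtrl (log2 fold change -0.37 with SE 0.0889, adjusted p = 0.00483 in edgeR), so these fell. With ALB as a covariate, or without sgITPR3 replicate 2, 2 genes of this list fell, and 4 fell without sgITPR3 replicate 1 or without sgCtrl replicate 1. The ALB fit also lowered the number of all genes that fell, so its smaller count is not particular to this list.

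Of 25 tested genes of amino acid sensing by mTORC1, 2 rose, 0 fell and 23 did not pass (median log2 fold change -0.07). This share of 8% past the threshold was below the 24.5% of all genes. Those that rose were SESN3, a sestrin, which averaged 75.6 ± 6.56 CPM in sgITPR3 and 54.9 ± 4.88 CPM in sgCtrl (log2 fold change 0.46 with SE 0.0833, adjusted p = 3.20e-04 in edgeR), and FLCN, folliculin, which averaged 24.6 ± 0.7104 CPM in sgITPR3 and 18.8 ± 0.443 CPM in sgCtrl (log2 fold change 0.39 with SE 0.09597, adjusted p = 0.00532 in edgeR). At an unadjusted edgeR p under 0.05, 4 genes of this list were lower. After adjustment 1 fell in DESeq2 and with 4 other settings, 0 in limma-voom and 2 without sgCtrl replicate 2. Of 17 tested further folate and glycine cleavage genes, 2 rose and 2 fell (median log2 fold change 0.01). This share of 23.5% was near that of all genes, 24.5%. GGH, which trims folate chains, averaged 251 ± 14.1 CPM in sgITPR3 and 191 ± 8.02 CPM in sgCtrl and rose, and the folate importer SLC46A1 averaged 14.4 ± 0.299 CPM in sgITPR3 and 10.3 ± 2.31 CPM in sgCtrl and rose. FPGS, which extends folate chains, averaged 25.4 ± 0.705 CPM in sgITPR3 and 39.2 ± 1.23 CPM in sgCtrl and fell, as did thymidylate synthase TYMS, which averaged 116 ± 11.5 CPM in sgITPR3 and 148 ± 15.9 CPM in sgCtrl.

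Of 20 tested mitochondrial carriers and glutamate enzymes, 1 rose and 1 fell (median log2 fold change -0.06). This share of 10% past the threshold was below the 24.5% of all genes. BCAT2, a branched-chain transaminase, averaged 21.4 ± 1.55 CPM in sgITPR3 and 25.9 ± 1.44 CPM in sgCtrl (log2 fold change -0.27 with SE 0.0981, adjusted p = 0.0472 in edgeR), a call lost in 9 of 15 other settings. Of 23 other amino acid transporters 8 were tested, which a gene can be through a high level in 1 group alone. Among these 8, 3 rose and 1 fell (median log2 fold change 0.48), a share of 50% against 24.5% of all genes. SLC7A11, the cystine and glutamate exchanger that also joins SLC3A2, was at 3.54, 3.44 and 3.56 CPM in sgITPR3 and 1.18, 0.696 and 0.534 CPM in sgCtrl (log2 fold change 2.12 with SE 0.302, adjusted p = 2.42e-05 in edgeR). The aromatic amino acid carrier SLC16A10 averaged 15.4 ± 2.24 CPM in sgITPR3 and 10.3 ± 1.22 CPM in sgCtrl and the glutamate importer SLC1A2 averaged 9.15 ± 0.977 CPM in sgITPR3 and 6.66 ± 1.09 CPM in sgCtrl, both higher. SLC15A4, a lysosomal carrier of histidine and peptides, averaged 26.1 ± 1.65 CPM in sgITPR3 and 34.6 ± 0.641 CPM in sgCtrl, which was lower.

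**Figure D5:**
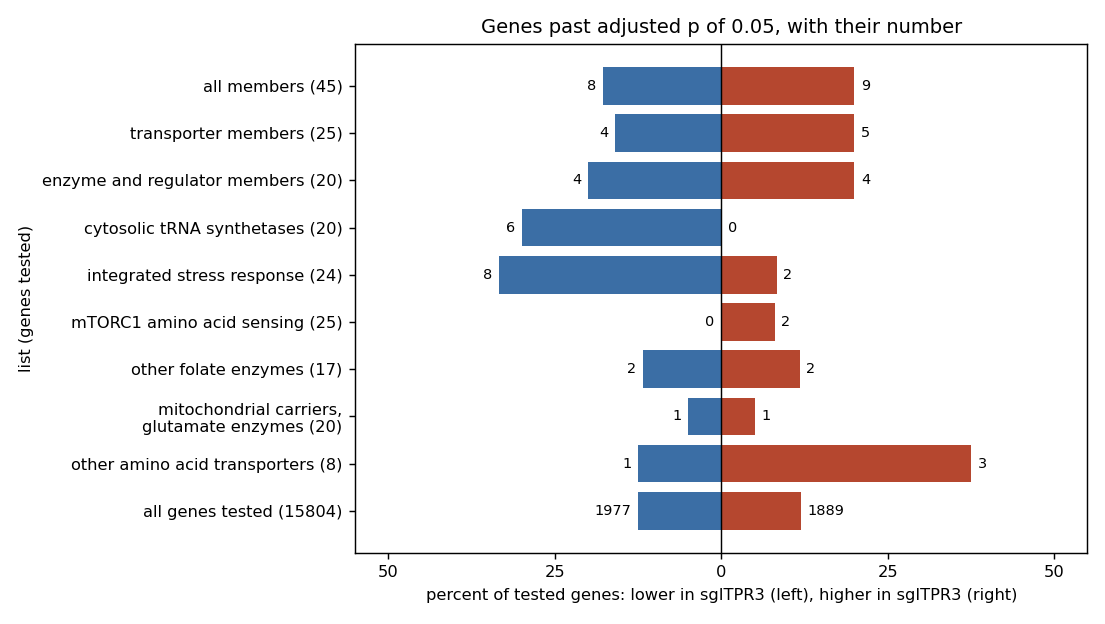
Percent of tested genes past an adjusted p of 0.05 that were lower (left, blue) or higher (right, red) in sgITPR3 for the 47 genes, their 2 subsets, 6 lists of the same pathways and all genes, with the number of genes tested in brackets and the number past the threshold beside each bar. Bars of the 47 genes reach 8 lower and 9 higher, and the tRNA synthetases have 6 lower and 0 higher.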

How the data were processed

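RNA from 6 metastasis samples was made into libraries with a Lexogen kit that reads transcript ends, per the labels' protocols. The deposited values are raw counts per gene, and the submitters' processing notes name STAR 2.6.0a, featureCounts 1.6.3, DESeq2 and GRCh38. The strand setting, the annotation release and any step that separates mouse reads are not stated in the labels or notes. Groups came from the labels, 3 sgITPR3 and 3 sgCtrl libraries. Genes were kept with filterByExpr (minimum count 10), scaled by TMM and tested with the robust edgeR 4.0.16 quasi-likelihood F test in R 4.3.3, with Benjamini-Hochberg adjustment over 15804 genes and a threshold of 0.05. SE is the log2 fold change divided by the square root of F, without its sign. The test was checked on simulated data. Scaling, filters, DESeq2 1.42.0, limma-voom (limma 3.58.1), a replicate block, ALB (log2 of CPM + 0.5) as a covariate and leaving out each library were tried as alternatives, and edgeR without robust estimation was added after seeing the data. All 47 genes are accounted for. From each pathway list up to 4 genes past the threshold with the smallest p are named, and a few genes of the lists are not reported here. The genes and lists were chosen with earlier results of these data known. Totals were 19140055 to 23943797 counts per library, and 1 count was worth 0.0405 to 0.0538 CPM. Counting floors cover counting error alone. Promoter sequences are from RefSeq (GRCh38.p14).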

Additional observations from a re-analysis of the deposited data

How the results depend on the processing

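Of the 17 genes that passed, 8 passed in all 15 alternatives (SLC7A7, SLC7A8, SLC6A6, SLC38A1, SLC38A5, SLC38A10, SLC43A2 and MTHFD1L), 9 lost the call in at least 1 and none reversed. With ALB as a covariate, 2 enzymes and regulators rose and 2 fell, 1058 of all genes rose and 1039 fell, and the median log2 fold change of the 45 genes was 0.074. Leaving out 1 library at a time gave 6 to 11 of the 47 genes higher and 5 to 9 lower, 2 to 4 enzymes and regulators higher and 2 to 4 lower, 1243 to 2164 of all genes higher and 1340 to 2188 lower, and a median of -0.0153 to 0.0608. Reversals concerned 14 genes that had not passed, none by more than 0.1814 from 0, and the cause was not tested. With ALB as a covariate the reversed log2 fold changes were -0.0605 for SLC1A1, 0.1814 for SLC1A3, 0.0921 for SLC7A5, -0.135 for SLC7A2, -0.0013 for SLC38A7, 0.0143 for ATF4, 0.0874 for PSAT1 and 0.0088 for GPT2. SLC38A9 was at -0.0005 with TMM without mitochondrially encoded genes, -0.0012 with no filter and -0.0044 in limma-voom. Leaving out 1 library at a time gave -0.0581 to 0.0162 for SLC1A4, -0.0514 to 0.0602 for SLC1A5, -0.0249 to 0.0617 for SLC7A6, -0.1946 to 0.0875 for SLC36A1, -0.0118 to 0.1246 for SLC38A7, -0.0854 to 0.0497 for SLC38A9, -0.1203 to 0.0608 for PSAT1, -0.0466 to 0.1735 for CTH and -0.0689 to 0.0621 for GPT2. Deviations of same-numbered libraries from their group means had correlations of -0.051, 0.038 and 0.119. With 3 libraries per group these values cannot decide whether the numbers pair the libraries. With the replicate block 10 of the 47 genes rose and 8 fell, and over all genes 1982 rose and 2103 fell. Where an arm was left with 2 libraries, the spread was pooled over both groups. Depth limits the genes under 10 CPM.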
